A study of Mus musculus with 4 samples.

Results

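The genes described here are 9 receptors through which myeloid cells, the family of monocytes, macrophages, granulocytes and dendritic cells, read chemokines: Ccr1, Ccr2, Ccr3, Ccr7, Ccrl2, Cx3cr1, Cxcr2, Cxcr4 and Ackr3. They were chosen by name for their function, with earlier results of these data known. All 9 were measured, each by a single probe set, among the 22180 genes of the array. Peritoneal macrophages came from wild type C57BL/6 mice (B6; the labels give no substrain) and wild type 129S6/SvEvTac mice (129S6), both aged 3 months and fed chow. Every mouse had received 1 ml of 4% thioglycollate, a broth that draws leukocytes into the peritoneal cavity, and was lavaged 4 days later. The cells were then plated and kept overnight in serum, so all values describe adherent cells after culture. Each strain had 1 female and 1 male array, and per the labels each array held pooled RNA of 3 mice, so that no single mouse can be seen and n is 2 arrays per strain.

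Chemokine receptors are G protein-coupled receptors of the cell surface that steer cells along gradients of small secreted proteins. Ccr2 brings monocytes out of the bone marrow and into inflamed tissue, Ccr1 serves their recruitment along with that of neutrophils, and Cx3cr1 marks patrolling monocytes and many tissue macrophages. Cxcr2 calls in neutrophils, Ccr3 eosinophils, and Ccr7 guides mature dendritic cells to lymph nodes. Cxcr4 holds leukocytes in the bone marrow through its ligand Cxcl12, while Ackr3 and Ccrl2 are atypical receptors that take up or present a ligand without classical G protein signalling.

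The receptors Ccr1, Ccr7, Cx3cr1 and Cxcr4 had both B6 arrays below both 129S6 arrays, a pattern that 26.1% of all genes showed. For Cxcr4 the order was narrow, with log2 intensities of 10.94 in the B6 male and 10.97 in the 129S6 female array. The stretch of 250 bases before the transcription start (GRCm38.p6, RefSeq) is shown for those 3 of the 4 that have a promoter entry, Ccr7 having none, so that receptors with this same order of arrays can be set side by side. Each is written 5′ to 3′ on the gene's strand, and capitals mark matches on either strand to the TATA box (TATAAA), the GC box (GGGCGG), the PU.1 core (GAGGAA), the AP-1 motif (TGANTCA) or the NF-kB consensus. The Ccr1 stretch lies at chr9:123968693-123968942 on the minus strand, that of Cx3cr1 at chr9:120068297-120068546 on the minus strand, and that of Cxcr4 at chr1:128592300-128592549 on the minus strand.
Ccr1: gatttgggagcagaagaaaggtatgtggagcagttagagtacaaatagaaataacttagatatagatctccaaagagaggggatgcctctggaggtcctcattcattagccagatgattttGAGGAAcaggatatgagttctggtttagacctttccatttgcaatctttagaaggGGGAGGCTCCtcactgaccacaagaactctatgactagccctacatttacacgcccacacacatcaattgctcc
Cx3cr1: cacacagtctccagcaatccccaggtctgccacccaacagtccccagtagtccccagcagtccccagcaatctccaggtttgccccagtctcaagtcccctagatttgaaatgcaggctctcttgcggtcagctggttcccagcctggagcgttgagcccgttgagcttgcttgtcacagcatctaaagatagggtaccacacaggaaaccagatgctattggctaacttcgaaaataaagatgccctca
Cxcr4: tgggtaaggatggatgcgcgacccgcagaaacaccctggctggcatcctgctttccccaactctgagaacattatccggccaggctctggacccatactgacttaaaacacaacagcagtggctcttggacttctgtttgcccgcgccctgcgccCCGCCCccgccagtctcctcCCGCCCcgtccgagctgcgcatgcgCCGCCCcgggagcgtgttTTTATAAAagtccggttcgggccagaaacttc

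The 3 stretches shared none of the 5 motifs. The Ccr1 stretch held a PU.1 core and an NF-kB match, that of Cx3cr1 held none of them, and that of Cxcr4 held 3 GC boxes and a TATA box read on both strands in overlapping positions. Among receptors without this order of arrays, Ccr3 held PU.1, NF-kB and AP-1 matches, Ccrl2 GC box and NF-kB matches, and Cxcr2 a PU.1 core. Ackr3 held a GC box and a TATA box, and Ccr2 held none of the 5 motifs. The Ccr3 and Ccr2 stretches (chr9:124021721-124021970 and chr9:124101933-124102182, plus strand) precede the start given by the promoter entry. Both lie inside the span of the gene, which starts at 124017825 for Ccr3 and 124101918 for Ccr2. GC content was 43.6% for Ccr1, 53.6% for Cx3cr1 and 61.2% for Cxcr4, against a median of 52.4% over all 32851 promoter stretches of this length. Of those stretches, 12.4% held the TATA box, 32.7% the GC box, 23.3% the PU.1 core, 6.75% the AP-1 motif and 7.25% the NF-kB consensus. A match of letters is a description and not a bound site. The table is that of the B6 genome, so it says nothing of the 129S6 alleles.

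The arrays were taken as labelled after a check of sex-linked genes. Xist was bright in both female arrays, as were Uty, Eif2s3y and Kdm5d, all on the Y chromosome, in both male arrays. In the female arrays, which hold no Y chromosome, those 3 genes read 2.24 to 4.71, which gives an idea of the signal of a gene that is not expressed. The macrophage markers Cd68 (12.44 to 12.54), Csf1r (11.96 to 12.40) and Lyz2 (12.29 to 12.90) were high in all 4 arrays. All values are log2 probe set intensities, and because probe sets differ in brightness they are compared between arrays and not between genes. In pooled RNA, fewer cells of a type and less RNA per cell cannot be told apart.

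The strain comparison asked whether the receptors differ between B6 and 129S6 macrophages. None of the 9 passed limma's test over all genes (adjusted p under 0.05), while 0.852% of all genes did, and 3 of the 9 had an unadjusted p under 0.05, against 16.3% of all genes. Ccr7, Cx3cr1 and Ccr1 were these 3, with the largest differences of the 9, and all had lower values in B6, as did 9.36% of all genes at that unadjusted p. The groups did not overlap for 4 of the 9 (44.4%), each with B6 below, a pattern that 26.1% of all genes showed, and for 0 with B6 above (22.8% of all genes), while 48.9% of all genes were apart in either direction. The median difference, B6 minus 129S6, was -0.23 over the 9 receptors and -0.02 over all genes.

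Ccr7 differed most evenly. It read 6.88 and 6.94 in the B6 female and male arrays, against 7.93 and 7.91 in the 129S6 female and male arrays. The sexes of a strain were close together and the strains lay about 1 log2 unit apart, with means of 6.91 ± 0.04 in B6 and 7.92 ± 0.02 in 129S6 (SD, n = 2 each). The difference was -1.02 (SE 0.16, 95% interval -1.44 to -0.59) with an adjusted p of 0.0984 in limma. It passed without the sex term (adjusted p = 0.0440), among the brighter genes (0.0348) and where the prior variance was let to depend on mean intensity (0.0132). Over all 11 alternatives the difference was -1.05 to -0.99 and the adjusted p 0.0132 to 0.176.

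Cx3cr1, the fractalkine receptor, read 5.34 and 6.00 in the B6 female and male arrays, against 6.32 and 6.55 in the 129S6 female and male arrays. Both B6 values lay below both 129S6 values, and in each strain the male array was the higher one. The difference was -0.76 (SE 0.19, 95% interval -1.27 to -0.25, adjusted p = 0.187), and no alternative called it. Without the B6 female array, the lowest of the 4, the difference was -0.44 (adjusted p = 0.449).

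Ccr1, a receptor for Ccl3, Ccl5 and related ligands, read 8.19 and 8.02 in the B6 female and male arrays, against 9.10 and 8.38 in the 129S6 female and male arrays. The 129S6 female array stood apart from the other 3, and without it the difference was -0.27 (adjusted p = 0.708), in place of -0.64 (SE 0.21, 95% interval -1.20 to -0.08, adjusted p = 0.264) with all arrays.

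**Figure D1:**
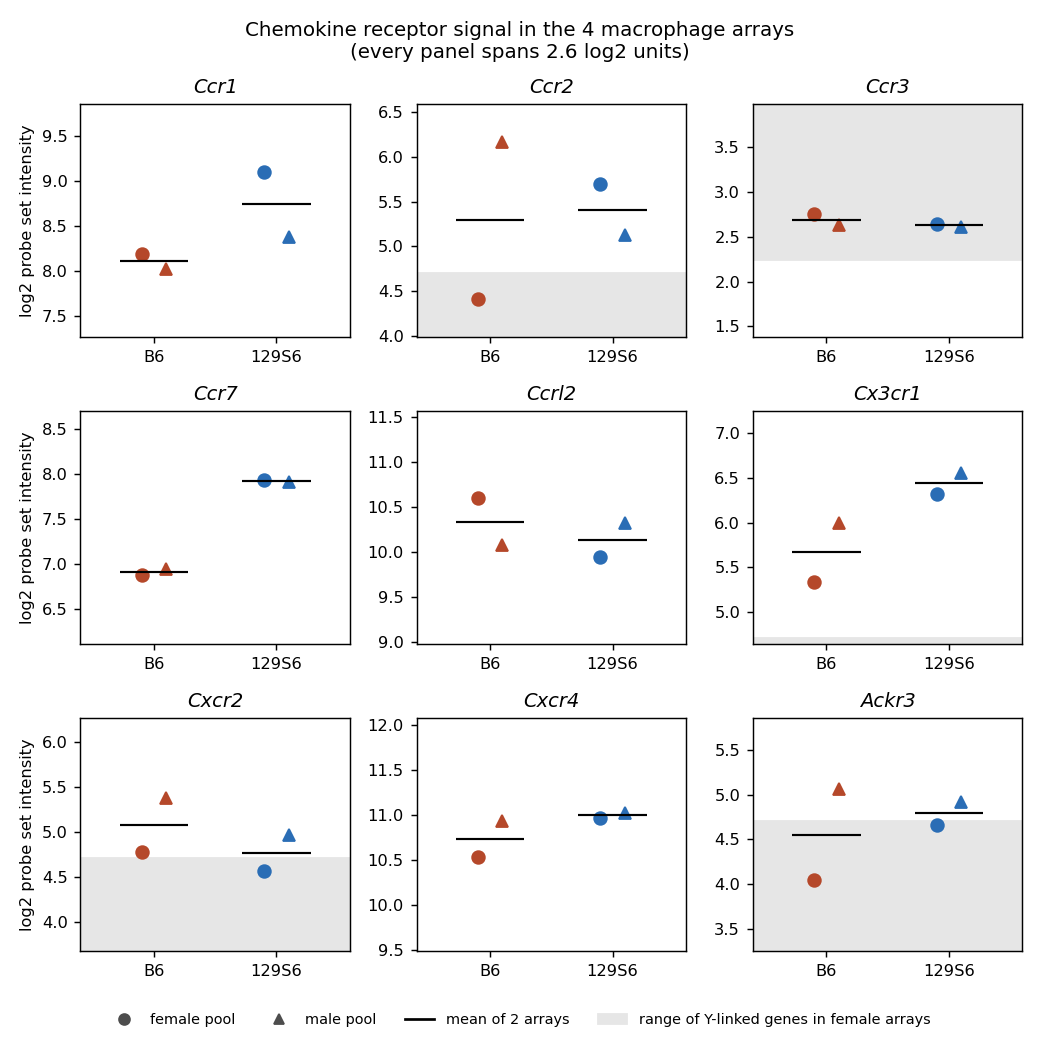
Log2 probe set intensity of each receptor (vertical axis, every panel spanning 2.6 log2 units) in the B6 and 129S6 arrays, with circles for female pools, triangles for male pools and a line for the mean of 2 arrays. Grey marks 2.24 to 4.71, the range of Y-linked genes in the female arrays, and Ccr7 shows the 2 arrays of each strain nearly together, at 6.88 and 6.94 in B6 and at 7.93 and 7.91 in 129S6.

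Cxcr4, the receptor of Cxcl12, was bright in every array. It read 10.54 and 10.94 in the B6 female and male arrays, against 10.97 and 11.03 in the 129S6 female and male arrays. The B6 male array fell only 0.09 short of its 129S6 counterpart, and the difference of -0.26 (SE 0.18, 95% interval -0.74 to 0.21) did not pass (adjusted p = 0.525). Without the B6 female array it was -0.06 (0.924).

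The remaining classical receptors showed no separation of the strains. Ccr2 read 4.42 and 6.16 in the B6 female and male arrays, against 5.69 and 5.13 in the 129S6 female and male arrays. The B6 arrays lay on either side of both 129S6 arrays, and the B6 female value fell into the range of Y-linked genes. Its difference of -0.12 (SE 0.58) had the widest interval of the 9, -1.71 to 1.47, so these arrays leave room for a change of more than 1 log2 unit either way.

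Cxcr2 read 4.78 and 5.38 in the B6 female and male arrays, against 4.56 and 4.97 in the 129S6 female and male arrays, so that the groups overlapped close to the range of Y-linked genes. The difference was 0.31 (SE 0.16, 95% interval -0.13 to 0.75, adjusted p = 0.427), and 0.01 (0.994) without the B6 male array. Ccr3 read 2.75 and 2.63 in the B6 arrays and 2.64 and 2.61 in the 129S6 arrays, inside the range of Y-linked genes throughout. A difference between the strains (0.06, SE 0.16, adjusted p = 0.881) was not detectable at such a signal.

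The atypical receptors did not separate the strains either. Together with Ccr2 they were the 3 receptors whose strain difference had opposite signs in females and males, as 36.6% of all genes did. Ccrl2, which binds the chemoattractant chemerin and is induced in activated macrophages, read 10.60 and 10.08 in the B6 female and male arrays, against 9.95 and 10.32 in the 129S6 female and male arrays. B6 was the higher strain in females and the lower in males, and the difference was 0.21 (SE 0.27, 95% interval -0.53 to 0.94, adjusted p = 0.753). Ackr3, a scavenger of Cxcl12, read 4.05 and 5.06 in the B6 female and male arrays, against 4.66 and 4.92 in the 129S6 female and male arrays. Female arrays of both strains were within the range of Y-linked genes, and the difference was -0.23 (SE 0.24, 95% interval -0.88 to 0.42, adjusted p = 0.687).

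**Figure D2:**
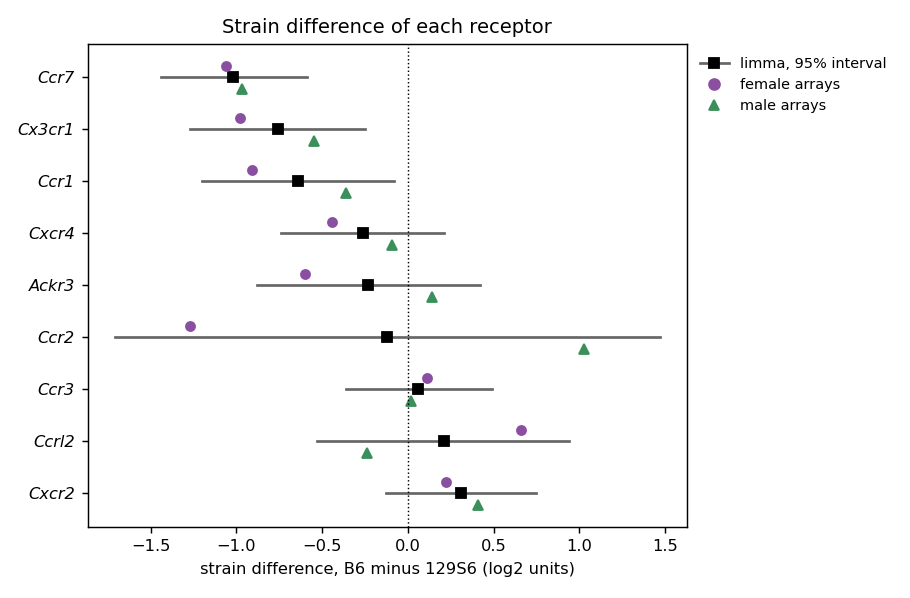
Strain difference of each receptor in log2 units, B6 minus 129S6, with squares and bars for the limma estimate and its 95% interval, circles for the female and triangles for the male arrays. The intervals of Ccr7, Cx3cr1 and Ccr1 lie below 0 before adjustment over all genes, and the sexes fall on opposite sides of 0 for Ccr2, Ccrl2 and Ackr3.

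The sex comparison, male minus female, called none of the 9 receptors with limma, against 0.0135% of all genes. Cxcr2 alone had an unadjusted p under 0.05 (0.0333, adjusted p = 0.860), as did 5.22% of all genes, with a difference of 0.50, 0.60 in B6 and 0.41 in 129S6. The male array was the higher one in both strains for Cxcr2, Cxcr4, Cx3cr1 and Ackr3, and the lower one in both for Ccr1 and Ccr3. Ccr3 read inside the range of Y-linked genes in every array. The share of all genes with the same order of the sexes in both strains was not counted, so nothing is drawn from this order.

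The genes lie on 3 chromosomes, 5 on chromosome 9, 3 on chromosome 1 and Ccr7 on chromosome 11. On chromosome 9, Ccr1, Ccr1l1, Ccr3 and Ccr2 follow each other within 147 kb (GRCm38.p6). The differences of these neighbours were -0.64 for Ccr1, 0.01 for Ccr1l1, 0.06 for Ccr3 and -0.12 for Ccr2. Whether they share a difference was not tested, and these values cannot decide it. All Ccr3 values lay inside the range of Y-linked genes. The interval of Ccr2, -1.71 to 1.47, includes the difference of Ccr1, which itself was not called.

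Of 18 ligands of these receptors measured, 3 were called and fell in B6, Ccl2, Cxcl1 and Cxcl5, against 0.514% of all genes called lower in B6, and 0 were called higher (0.338% of all genes). Their median difference was -0.84, 12 of the 18 had both B6 arrays below both 129S6 arrays (26.1% of all genes) and 2 had both above (22.8% of all genes). Whether the ligands and the receptors differ from each other in this respect was not tested.

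Ccl2, the ligand of Ccr2 that recruits monocytes, read 7.26 and 7.51 in the B6 female and male arrays, against 10.68 and 9.95 in the 129S6 female and male arrays. It fell by 2.93 in B6 (SE 0.29, adjusted p = 0.0488) and passed whichever array was left out, in fits without the sex term in which the lone array of a strain adds nothing to the estimate of the spread. It did not pass with a robust variance prior (0.0568), after quantile normalization (0.0638) or over all probe sets (0.114). Ccl7, another Ccr2 ligand, had -2.23 (adjusted p = 0.0620), and Ccl12 had -0.08 within the range of Y-linked genes. The difference of Ccr2 itself was -0.12.

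All 5 ligands of Cxcr2, the chemokines that attract neutrophils, were lower in both B6 arrays than in both 129S6 arrays (26.1% of all genes), while Cxcr2 had 0.31. Cxcl1 read 6.21 and 4.91 in the B6 female and male arrays, against 9.01 and 8.29 in the 129S6 female and male arrays, and fell by 3.09 (SE 0.21, adjusted p = 0.0395). Its call was lost without the 129S6 female (-2.73, adjusted p = 0.139) or the 129S6 male array (-3.45, 0.056), and over all probe sets (0.0982). Cxcl5 fell by 2.14 to 4.07 in both B6 arrays, a value inside the range of Y-linked genes, against 6.49 and 5.93 in the 129S6 female and male arrays (adjusted p = 0.0486). It did not pass without the 129S6 female array (0.0535), with a robust variance prior (0.0565), after quantile normalization (0.0590) or over all probe sets (0.115). Cxcl3 had -3.86 (adjusted p = 0.116) with a B6 male value of 2.98 inside the range of Y-linked genes, and leaving out the B6 female array gave -5.86, leaving out the B6 male array -1.87. Cxcl2 had -2.71 (0.0578), and -1.61 (0.224) without the B6 male array.

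Ligands of the other receptors went both ways and none passed. For Ccr1 and Ccr3, Ccl5 had 1.5 (adjusted p = 0.0984), with 12.06 and 11.01 in the B6 female and male arrays, against 10.21 and 9.85 in the 129S6 female and male arrays. Ccl7, which is also a ligand of Ccr1 and Ccr3, had the largest difference for both receptors, -2.23 (0.062). Ccl6, a ligand of Ccr1, had -0.68 (0.375), and the eosinophil attractant Ccl24, a ligand of Ccr3, had -1.56 (0.0585). Cx3cl1, the membrane-bound ligand of Cx3cr1, had 0.68 (0.347). It read 5.0 and 5.99 in the B6 female and male arrays, against 4.8 and 4.82 in the 129S6 female and male arrays. Its difference was 0.19 without the B6 male array. Cxcl12, shared by Cxcr4 and Ackr3, had -0.99 (0.188). The B6 male value of Cxcl12, 4.34, was inside the range of Y-linked genes. The Cxcl12 difference was -0.51 without that array and -1.48 without the B6 female array. Mif, the further ligand of Cxcr4, differed little (0.03, 0.955). Cxcl11, the further ligand of Ackr3, had -0.45 (0.443), with only the 129S6 male array (4.82) above the range of Y-linked genes. The ligands of Ccr7 are read by probe sets that list several gene copies, and the chemerin gene is listed together with another symbol, so neither was analysed.

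**Figure D3:**
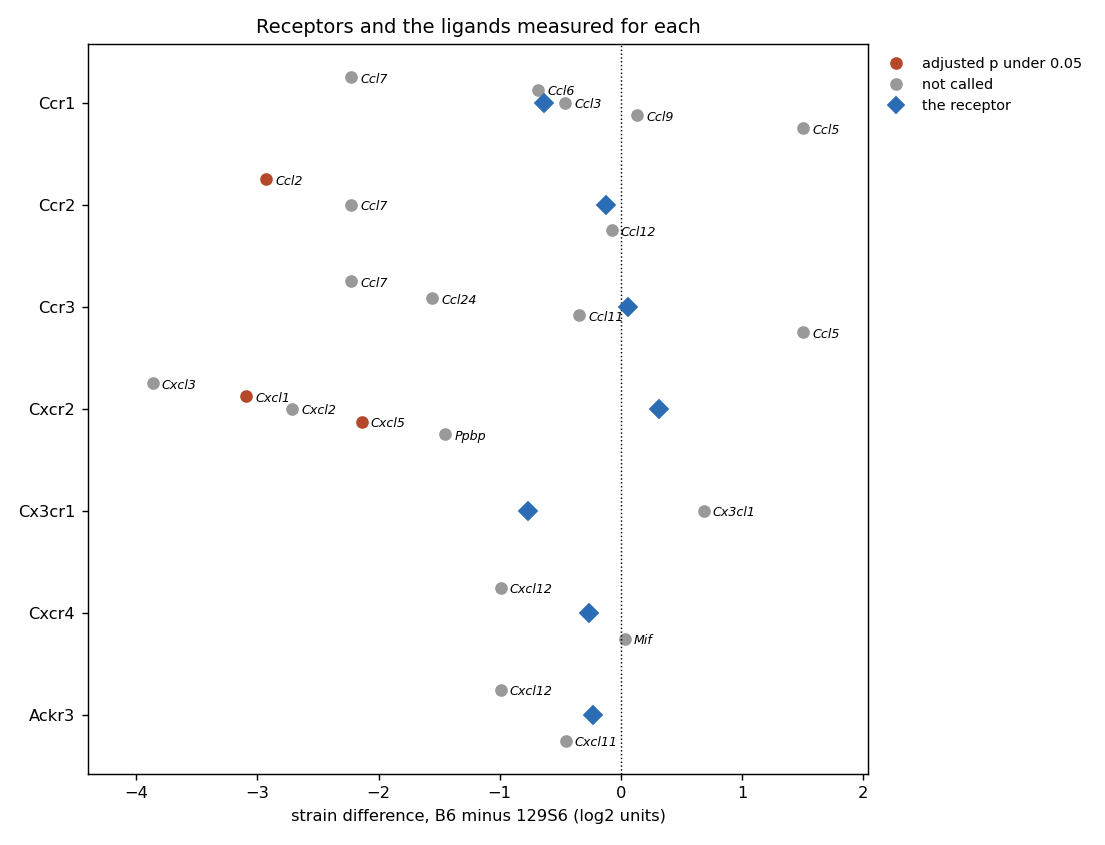
Strain difference in log2 units, B6 minus 129S6, of 7 receptors (diamonds) and of the ligands measured for each (circles, coloured where called at adjusted p under 0.05), with ligands shared by several receptors drawn at each. The ligands of Cxcr2 lie between -3.86 and -1.45 while Cxcr2 is at 0.31, and Ccl2 is at -2.93 while Ccr2 is at -0.12.

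Of 16 other chemokine receptors measured, 0 were called by limma (0.852% of all genes) and 3 had an unadjusted p under 0.05 (16.3% of all genes). Their median difference was 0.05, and 10 of the 16 read at or below the top of the range of Y-linked genes in all arrays. Cxcr1, the second receptor of neutrophil chemokines beside Cxcr2, had the largest difference, 1.51 (adjusted p = 0.131), with 6.75 and 6.28 in the B6 female and male arrays, against 4.76 and 5.25 in the 129S6 female and male arrays. Cmklr1, the signalling receptor of chemerin, which Ccrl2 also binds, had -0.93 (0.163), and Gpr1, inside the range of Y-linked genes in all 4 arrays, had 0.64 (0.311).

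Genes that carry or stop the receptor signal did not pass either. Among 17 signalling genes limma called 0 (0.852% of all genes). An unadjusted p under 0.05 was found for 3 (16.3% of all genes), and the median difference was -0.13. The kinase gene Fgr (-1.32, adjusted p = 0.178), the phosphoinositide 3-kinase subunit gene Pik3r6 (-0.86, 0.126) and the phospholipase gene Plcb3 (-0.44, 0.3) differed most. Among 12 genes of receptor kinases, arrestins and RGS proteins, which end the signal, limma called 0 (0.852% of all genes). Of these genes, 2 had an unadjusted p under 0.05 (16.3% of all genes), and the median was -0.18. Rgs1 had the largest value, 1.33 (0.0813), followed by Rgs16 with -0.64 (0.187) and Arrb2 with -0.37 (0.362).

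Markers of the cells that carry these receptors gave the following values, to be read against 0.514% of all genes called lower and 0.338% called higher in B6. Of 7 dendritic cell genes, 1 fell in B6 and 0 rose. Their summed intensity was 428 to 526 in the B6 arrays and 721 to 813 in the 129S6 arrays. The gene that fell was Fscn1, an actin-bundling protein of mature dendritic cells, with 5.94 and 5.90 in the B6 female and male arrays, against 8.07 and 7.83 in the 129S6 female and male arrays (-2.03, adjusted p = 0.0420). Fscn1 and Ccl22 (-1.40, 0.118) had the largest differences of the list, while Cd209a, its brightest gene, had 0.05 (0.908). The defining genes Flt3 (4.45 to 5.52) and Zbtb46 (5.0 to 5.51) were near the range of Y-linked genes. The part of these cells in the Ccr7 difference was not tested.

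Of 10 neutrophil genes, 6 read at or below the top of the range of Y-linked genes in all arrays, among them the defining genes S100a9, Mpo and Elane, and Ly6g read 3.65 to 4.73, beside the low signal of Cxcr2. The 3 brightest genes of the list had both B6 arrays below both 129S6 arrays, as did 26.1% of all genes. S100a8, a calcium-binding protein of neutrophils and monocytes, read 6.15 and 5.49 in the B6 female and male arrays, against 7.52 and 6.92 in the 129S6 female and male arrays (-1.40, adjusted p = 0.0585). The collagenase gene Mmp8 read 7.63 and 7.86 in the B6 female and male arrays. Its 129S6 female and male values were 8.77 and 7.87, for a difference of -0.58 (adjusted p = 0.451). The brightest was Csf3r, with 10.15 and 10.44 in the B6 female and male arrays, against 10.77 and 10.50 in the 129S6 female and male arrays (-0.34, adjusted p = 0.493), a gene that macrophages also express. The summed intensity of the list was 1506 to 1776 in the B6 arrays and 1926 to 2479 in the 129S6 arrays. Limma called 0 of its genes (0.852% of all genes), and 2 of the 10 had an unadjusted p under 0.05 (16.3% of all genes). Of 6 eosinophil genes, 4 (Prg2, Epx, Il5ra and Ear6) read within the range of Y-linked genes in all arrays, beside the low signal of Ccr3. Siglecf, which alveolar macrophages also express, rose by 1.88 in B6 and Alox15, shared with resident macrophages, fell by 4.09 (adjusted p = 0.0438 and 0.0482).

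The lists of macrophages and monocytes, cells that carry Cx3cr1, Ccr1 and Ccr2, had members on both sides, except that all 9 resident macrophage markers had differences below 0. Of 9 general macrophage markers limma called 0 and 7 had an unadjusted p under 0.05 (16.3% of all genes). Both B6 arrays were below both 129S6 arrays for 5 of them (26.1% of all genes), Cd14 (-1.65) among them. Both were above for 3 (22.8% of all genes), Fcgr1 (1.72), Lgals3 (0.93) and Mertk (0.78). The sums over all 9 were 23023 to 23574 in the B6 arrays and 28037 to 30781 in the 129S6 arrays. Of 9 markers of resident large peritoneal macrophages 4 fell in B6 (Cxcl13, Prg4, Alox15 and Serpinb2) and 0 rose, while Vsig4 had -0.50 (adjusted p = 0.570), with a summed intensity of 2074 to 2131 in the B6 arrays and 10104 to 14922 in the 129S6 arrays. Of 9 markers of monocytes and small macrophages 2 rose (Retnla and Mrc1) and 1 fell (Vcan), with sums of 5971 to 6070 in the B6 arrays and 3009 to 4345 in the 129S6 arrays. The bright genes of that list were Retnla, Mrc1 and H2-Ab1 (0.43, adjusted p = 0.402), whereas Ly6c2, which marks inflammatory monocytes, had -2.62 (0.0527), with 6.94 and 4.51 in the B6 female and male arrays, against 9.11 and 7.57 in the 129S6 female and male arrays. Of 8 fibroblast genes 3 fell (Dcn, Sparc and Pdgfra) and 0 rose, while Bgn had -2.64 (adjusted p = 0.0655), with sums of 504 to 801 in the B6 arrays and 3354 to 3700 in the 129S6 arrays, beside the lower Cxcl12 and Cxcl1 values. The part of any of these lists in the receptor or ligand differences was not tested.

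**Figure D4:**
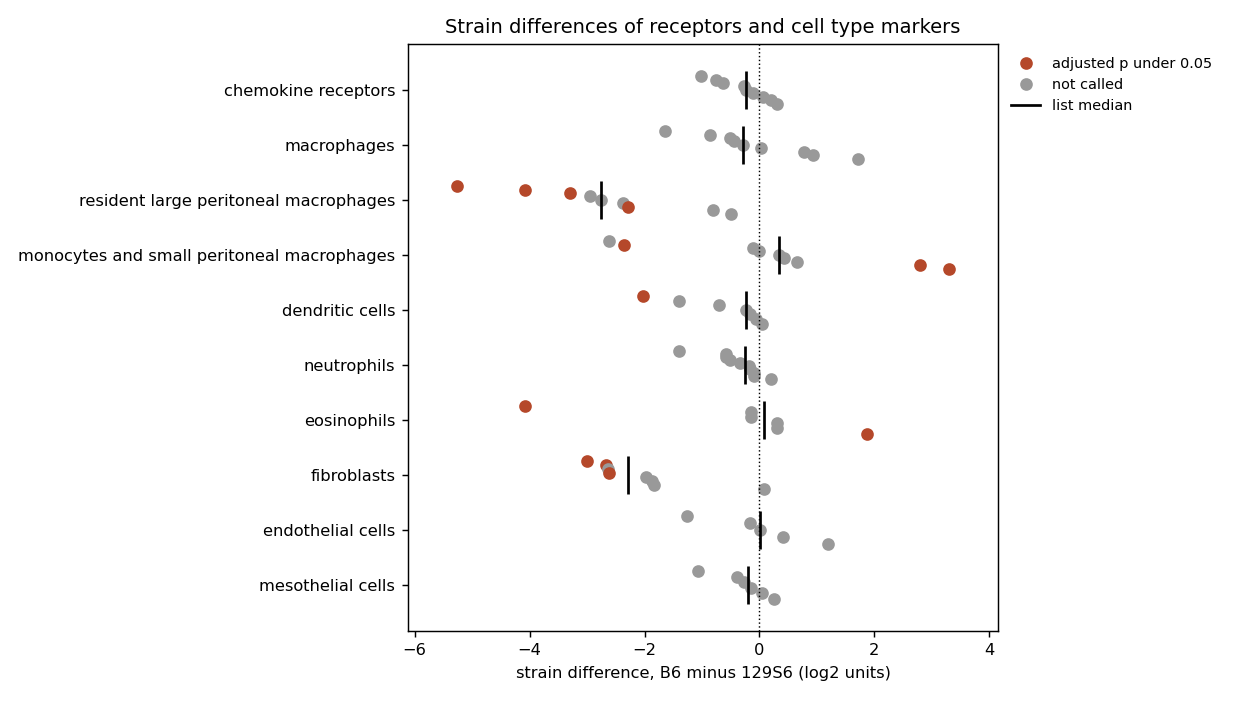
Strain difference in log2 units, B6 minus 129S6, of the 9 receptors and of marker genes of cells a lavage could hold (circles, coloured where called at adjusted p under 0.05), with a line for each list's median. The receptors lie between -1.02 and 0.31 around a median of -0.23, and the resident macrophage markers reach down to -5.26.

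The genes most like the 2 receptors with the largest differences were found by the Euclidean distance over the 4 arrays after centring each gene on its mean. Those nearest to Ccr7 were Nod1, a cytosolic sensor of bacterial peptidoglycan (distance 0.0447), Rbm24 (0.0649) and the tubulin gene Tuba1a (0.0682). Those nearest to Cx3cr1 were Rapgefl1 (0.0597), the retinaldehyde dehydrogenase gene Aldh1a3 (0.0990) and Pram1 (0.102). With 4 arrays, such closeness is a description of these values only.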

How the data were processed

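RNA of peritoneal macrophages from 4 pools was hybridized to Affymetrix Mouse Gene 2.1 ST arrays. The authors used Affymetrix Expression Console to obtain the deposited log2 intensities per probe set. Its version, summarization and background correction are not given in the sources used here. Array medians of 4.85 to 4.87 differed little, and the values were used as deposited. Of 41345 probe sets 23521 had a single gene symbol; the one with the highest mean was kept for each of 22180 genes. Strain (B6 minus 129S6) and sex (male minus female) were additive terms of 1 model in limma 3.58.1 (lmFit, eBayes; R 4.3.3), with 1 residual degree of freedom and a prior of 3.18, and Benjamini-Hochberg adjustment over all genes. The p-values therefore lean on spread shared across genes, and that of a gene is the disagreement of its strain difference between sexes. The fit was tested on simulated data. An interaction could not be fitted. Arrays give no count depth, and their number limits the precision.

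The receptors and gene lists were chosen with earlier results of these data known. Named were all receptors, the called genes and the 3 that differed most in each ligand, receptor and signalling list, and the 3 brightest of the macrophage, monocyte, dendritic cell, granulocyte and fibroblast marker lists. The neighbours of Ccr1, the other called or defining markers and the weakest Cxcr2 ligand were added after their values were seen. Lists of B, T and NK, mast, mesothelial and endothelial cells (4, 6, 6, 6 and 5 genes) had 0 called genes by limma (0.852% of all genes). At an unadjusted p under 0.05 they had 2, 0, 1, 1 and 2 (16.3% of all genes). Motifs were searched in 250 bases before the start given by each promoter entry. Alternatives omitted the sex term or 1 array (then without the sex term, the spread coming from the strain with both arrays and from all genes), changed the variance prior, kept brighter genes, averaged probe sets, applied quantile normalization, or tested all probe sets. The methods of the study give more mice per pool than the labels, which are followed here.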

Additional observations from a re-analysis of the deposited data

Results flagged for a closer look

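The strain difference, B6 minus 129S6, had opposite signs in females and males for 3 of the 9 receptors, as for 36.6% of all genes. With 1 array per strain and sex the disagreement itself was not tested. Ccr2 had -1.27 in females and 1.03 in males, a gap of -2.30 (females minus males). Ccrl2 had 0.66 in females and -0.24 in males (gap 0.90), and Ackr3 had -0.60 in females and 0.14 in males (gap -0.75). Of the ligands named, Ccl12 had 0.34 in females and -0.49 in males (gap 0.83), and Mif 0.27 and -0.21 in females and males (gap 0.47).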

How the results depend on the processing

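Of 96 receptor values under 11 alternatives, 89 kept their direction and side of the threshold, 3 passed it (Ccr7, in the report) and 4 changed sign. Leaving out the B6 female array gave 0.75 for Ccr2, -0.06 for Ccrl2 and 0.27 for Ackr3, and leaving out the 129S6 female array gave 0.16 for Ccr2. Over the fits that leave out 1 array, Ccr2 ranged over -0.99 to 0.75, Ccrl2 over -0.06 to 0.47 and Ackr3 over -0.73 to 0.27. Ccl12 had 0.00 after quantile normalization and 0.13 without the B6 male or the 129S6 male array, and Mif had -0.07 when the B6 female array was left out and -0.11 when the 129S6 female array was. These fits gave -0.29 to 0.13 for Ccl12 and -0.11 to 0.17 for Mif. Receptors called were 1 without the sex term, 1 with an intensity-dependent prior and 1 among the brighter genes; the count was 0 in each fit without 1 array. Over all genes 189 were called, 431 without the sex term, 1256 with an intensity-dependent prior, 589 among the brighter genes, 81 after quantile normalization, 0 over all 41345 probe sets (limma; 5707 with an unadjusted p under 0.05), and 84 (without the 129S6 female) to 564 (without the B6 female), with 321 without the 129S6 male, in the fits without 1 array. Ligands called were 3, and 10 with an intensity-dependent prior, 8 among the brighter genes, 1 with a robust prior, 1 after quantile normalization, 0 over all probe sets (11 of the 18 had an unadjusted p under 0.05 in the main model), and 1 to 7 without 1 array (7 without the B6 female, 5 without the B6 male, 1 without the 129S6 female). Of all genes, 16.3% had an unadjusted p under 0.05 in the main limma model. Other receptors called were 2 with an intensity-dependent prior. Signalling and desensitization genes called were 1 without the sex term, 3 with an intensity-dependent prior, 2 among the brighter genes and 0 to 1 without 1 array. Why these counts moved was not tested, beyond the fewer genes or arrays that enter some of the fits. The labels give no replicate numbers, so arrays are matched by sex only, a pairing that the additive sex term of the model already uses. Receptors close to background, Ccr3, Cxcr2 and Ackr3, were not among the brighter genes and have no value there.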
